A study of Mus musculus with 12 samples.

Results

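Eyelid tissue taken at 21h was compared with eyelid tissue taken at 9h across the transcriptome, with both diets together and diet kept as a block. Both are hours of the day. The 8 libraries were the 4 of 21h and the 4 of 9h among the 12 RNA sequencing libraries of the study, chosen by the time in their labels. The 21h libraries were HF_21h replicates 3 and 6 and CTL_21h replicates 1 and 2, and the 9h libraries were HF_9h replicates 6 and 7 and CTL_9h replicates 2 and 3. HF stands for mice on a high-fat diet (60 kcal% fat), and CTL for mice on a standard-fat diet (10 kcal% fat). Where 15h is given, it rests on HF_15h replicates 2 and 6 and CTL_15h replicates 2 and 3. All were male C57BL/6 mice, bought at 6 to 8 weeks of age and kept with 12 h of light a day, and no group carried a genetic change. The sample labels give 3 months on the diet and the series text 4 months. The hour at which the lights came on, and whether a library came from 1 mouse or from a pool, are not stated in the labels, so the p-values reflect only how far these libraries spread, which may be technical.

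The tissue is labelled as meibomian gland, which secretes the lipids of the tear film at the lid margin, but by the series text the eyelids were taken whole, upper and lower. Meibocyte genes were strong in every library: the wax ester synthase gene Awat2 had 1327 and 1147 FPKM in HF and 840.1 and 1132 FPKM in CTL libraries of 21h, against 959 and 1474 FPKM in HF and 1155 and 1320.3 FPKM in CTL libraries of 9h. Genes of skeletal muscle, epidermis, hair follicle and fibroblasts were also strong, so each library was a mixture of cell types. In such bulk samples fewer cells of a type and less RNA per cell cannot be told apart. The libraries of 21h held 14096362 to 16629317 reads, against 16334953 to 17889158 reads at 9h, as recovered from the steps between the values. FPKM (reads per kilobase of exon, scaled to depth) are given below with HF replicates 3 and 6 and CTL replicates 1 and 2 for 21h, and with HF replicates 6 and 7 and CTL replicates 2 and 3 for 9h, in that order.

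The 24-hour clock of mammalian cells is a loop in which a pair of activators, ARNTL with CLOCK or NPAS2, binds E-box sequences and drives the genes of its own inhibitors. The PER and CRY proteins inhibit the pair, and the nuclear receptors NR1D1 and NR1D2 repress Arntl. The PAR bZIP factors DBP, TEF and HLF pass the rhythm to further genes through D-boxes. Such clocks run in most tissues, skin and gland included, and mice are active mainly in the dark.

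Of the 13228 genes above 1 FPKM in at least 2 of the 12 libraries, 661 differed between 21h and 9h at an adjusted p under 0.05. These were 241 genes higher at 21h (1.82%) and 420 genes lower (3.18%), and they are said to be called. Most changes were moderate: 16 of the called genes were at least 2-fold higher at 21h and 37 were at least 2-fold lower. In 610 of the 661 the 4 libraries of 21h lay entirely above or entirely below the 4 of 9h, against 14.1% of all genes tested. Since the 661 were chosen by a test on the same 8 libraries, this only describes them. The median log2 fold change of all genes was 0.05, 59.9% of the genes had a value above 0 and 40.1% a value below 0.

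**Figure D1:**
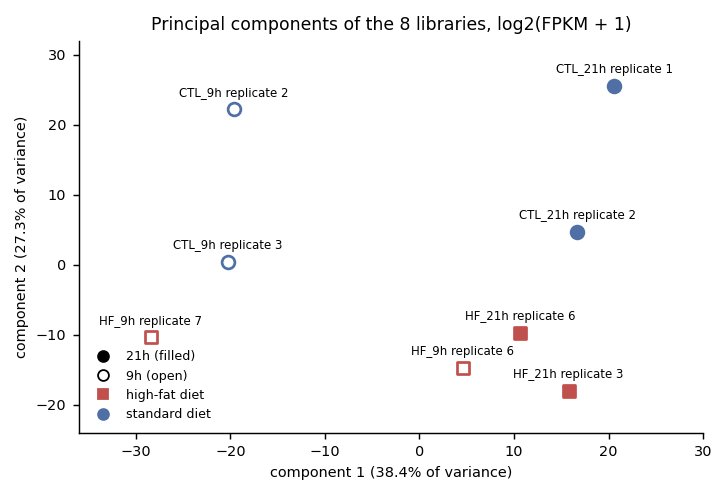
First and second principal components of log2(FPKM + 1) in the 8 libraries, with 21h filled, 9h open, HF as red squares and CTL as blue circles. The 4 libraries of 21h lie between 10.7 and 20.6 on the first component, 3 of 9h lie between -28.4 and -19.7, and HF_9h replicate 6 lies at 4.58.

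One library of 9h stood apart from the other 3, which bears on every count that follows. On the first principal component, which held 38.4% of the variance, the 4 libraries of 21h lay between 10.7 and 20.6. At 9h, HF_9h replicate 6 had a value of 4.58, while HF_9h replicate 7 had -28.4, CTL_9h replicate 2 had -19.7 and CTL_9h replicate 3 had -20.3. The second component, with 27.3%, followed the diet, at -18.02 to -9.76 in the HF and 0.443 to 25.5 in the CTL libraries. Without HF_9h replicate 6 the same fit called 3960 genes (29.9%), 2664 higher and 1296 lower, with all 661 genes among them. The calls also depended on the other libraries. Leaving out CTL_21h replicate 2, HF_21h replicate 3 or CTL_9h replicate 2 left no gene called. In the other fits 22 were called without CTL_9h replicate 3, 34 without HF_9h replicate 7, 296 without CTL_21h replicate 1 and, with HF_21h replicate 6 left out, 240. The sign of the difference held in all 8 of these fits for each of the 661 genes, which had been chosen on the same libraries. No gene stayed called in more than 5 of the 8 fits.

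Genes of the circadian clock differed between the times in both directions. Of 29 genes tested in 4 lists of clock components, 6 were called higher at 21h and 2 lower, against 1.82% and 3.18% of all genes. The inhibitors Per2, Per3, Cry1, Ciart and Nr1d2 and the output factor Tef rose, and the activators Arntl and Npas2 fell. All 8 had the same sign in HF and in CTL libraries.

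Per2 (GRCm38 chromosome 1, 91415982 to 91459324, minus strand), which encodes a core inhibitor of the clock, showed the largest rise of the regularly named genes with at least 2 FPKM. It had 13.3 and 10.9 FPKM in HF and 15.2 and 13.4 FPKM in CTL libraries of 21h, against 3.95 and 2.97 FPKM in HF and 1.31 and 1.63 FPKM in CTL libraries of 9h. Every library of 21h was more than 2-fold above every library of 9h (log2 fold change 2.09, SE 0.21, adjusted p = 0.0104), and the log2 fold change ran over 1.95 to 2.27 when single libraries were left out. Per3 (chromosome 4, 151003652 to 151044665, minus strand), a second PER gene, had 10.1 and 10.7 FPKM in HF and 8.52 and 11.7 FPKM in CTL libraries of 21h, against 4.86 and 3.22 FPKM in HF and 1.54 and 2.68 FPKM in CTL libraries of 9h. Its times did not overlap either (log2 fold change 1.52, SE 0.19, adjusted p = 0.0193).

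Cry1, the cryptochrome that joins PER in the inhibitor complex, had 11.8 and 9.38 FPKM in HF and 11.001 and 9.89 FPKM in CTL libraries of 21h, against 5.99 and 6.27 FPKM in HF and 8.52 and 6.996 FPKM in CTL libraries of 9h. The difference was smaller than for the PER genes but again without overlap (log2 fold change 0.54, SE 0.11, adjusted p = 0.0340). Ciart, also known as Chrono, encodes a further inhibitor of the ARNTL complex, and its values were 13.2 and 9.55 FPKM in HF and 11.3 and 10.3 FPKM in CTL libraries of 21h, against 8.07 and 8.75 FPKM in HF and 4.11 and 5.49 FPKM in CTL libraries of 9h. It was called (log2 fold change 0.71, SE 0.16, adjusted p = 0.0449), but its adjusted p was 0.0501 with the libraries rescaled by their median ratio and 0.0543 by limma-voom, and over all fits that left out 1 library it ran from 0.0222 to 0.135. Nr1d2, the nuclear receptor REV-ERB beta, had 24.1 and 26.3 FPKM in HF and 26.0 and 28.9 FPKM in CTL libraries of 21h, against 21.0 and 18.1 FPKM in HF and 9.30 and 13.4 FPKM in CTL libraries of 9h. It passed the threshold narrowly (log2 fold change 0.79, SE 0.19, adjusted p = 0.04998) and did not pass with rescaled libraries (0.0502) or after centring on GC content (0.0633).

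The activators went the other way. Npas2, a partner of ARNTL that can stand in for CLOCK, had 2.40 and 2.16 FPKM in HF and 1.70 and 1.63 FPKM in CTL libraries of 21h, against 4.48 and 3.74 FPKM in HF and 4.74 and 4.74 FPKM in CTL libraries of 9h. The lowest library of 9h was still above the highest of 21h (log2 fold change -0.87, SE 0.12, adjusted p = 0.0194). Arntl, the gene of BMAL1, had 3.06 and 2.46 FPKM in HF and 2.38 and 1.77 FPKM in CTL libraries of 21h, against 5.24 and 3.75 FPKM in HF and 4.68 and 4.95 FPKM in CTL libraries of 9h, also without overlap (log2 fold change -0.73, SE 0.13, adjusted p = 0.0274). Clock itself was not called, with 9.62 ± 1.02 FPKM at 21h and 10.7 ± 0.614 FPKM at 9h (SD, n = 4 each; log2 fold change -0.14, adjusted p = 0.329). Arntl2, a paralogue of Arntl, was not called at a log2 fold change of 0.72 (adjusted p = 0.0560): it had 2.08 and 2.65 FPKM in HF and 2.66 and 3.03 FPKM in CTL libraries of 21h, against 2.10 and 0.807 FPKM in HF and 0.9002 and 1.13 FPKM in CTL libraries of 9h, so that HF_9h replicate 6 alone of the 9h libraries lay among those of 21h. The nuclear receptor gene Rora, whose product activates Arntl, had a log2 fold change of -0.16 and was not called.

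Not all inhibitors were higher at 21h. Nr1d1, the gene of REV-ERB alpha, had a negative value although its relative Nr1d2 rose: it had 7.54 and 7.52 FPKM in HF and 6.57 and 12.6 FPKM in CTL libraries of 21h, against 13.9 and 19.4 FPKM in HF and 11.5 and 18.3 FPKM in CTL libraries of 9h. One 21h library reached into the range of 9h, and the difference was not called (log2 fold change -0.82, SE 0.22, adjusted p = 0.0647). Per1 overlapped widely, with 16.2 and 30.2 FPKM in HF and 17.4 and 11.7 FPKM in CTL libraries of 21h, against 23.0 and 21.1 FPKM in HF and 6.56 and 11.7 FPKM in CTL libraries of 9h (log2 fold change 0.33, adjusted p = 0.406). The second cryptochrome gene Cry2 and the basic helix-loop-helix repressor genes Bhlhe40 and Bhlhe41 had log2 fold changes of 0.24, 0.21 and 0.28, none of them called. With single libraries left out, the median log2 fold change ran over 0.44 to 0.51 in the inhibitor list and over -0.22 to -0.10 in the activator list. As for all genes, no clock gene was called without CTL_21h replicate 2, HF_21h replicate 3 or CTL_9h replicate 2.

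Among the output factors, Tef had 26.8 and 25.8 FPKM in HF and 24.4 and 29.95 FPKM in CTL libraries of 21h, against 15.8 and 16.8 FPKM in HF and 9.63 and 11.8 FPKM in CTL libraries of 9h. The times did not overlap (log2 fold change 0.96, SE 0.14, adjusted p = 0.0199). Its relative Dbp had 11.8 and 12.5 FPKM in HF and 10.1 and 17.6 FPKM in CTL libraries of 21h, against 6.25 and 10.0 FPKM in HF and 4.70 and 6.80 FPKM in CTL libraries of 9h, without overlap but with a wide spread at 21h, and was not called (log2 fold change 0.83, SE 0.21, adjusted p = 0.0609). Hlf had a log2 fold change of 0.34, and Nfil3, the repressor that competes for the D-box, one of -0.21. None of the 9 kinases and ubiquitin ligases that set the stability of PER and CRY was called by limma or by limma-voom, and 1 of them, Csnk1d, had an unadjusted p under 0.05. Their log2 fold changes ran from -0.17 for Csnk1d to 0.20 for Csnk1e.

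**Figure D2:**
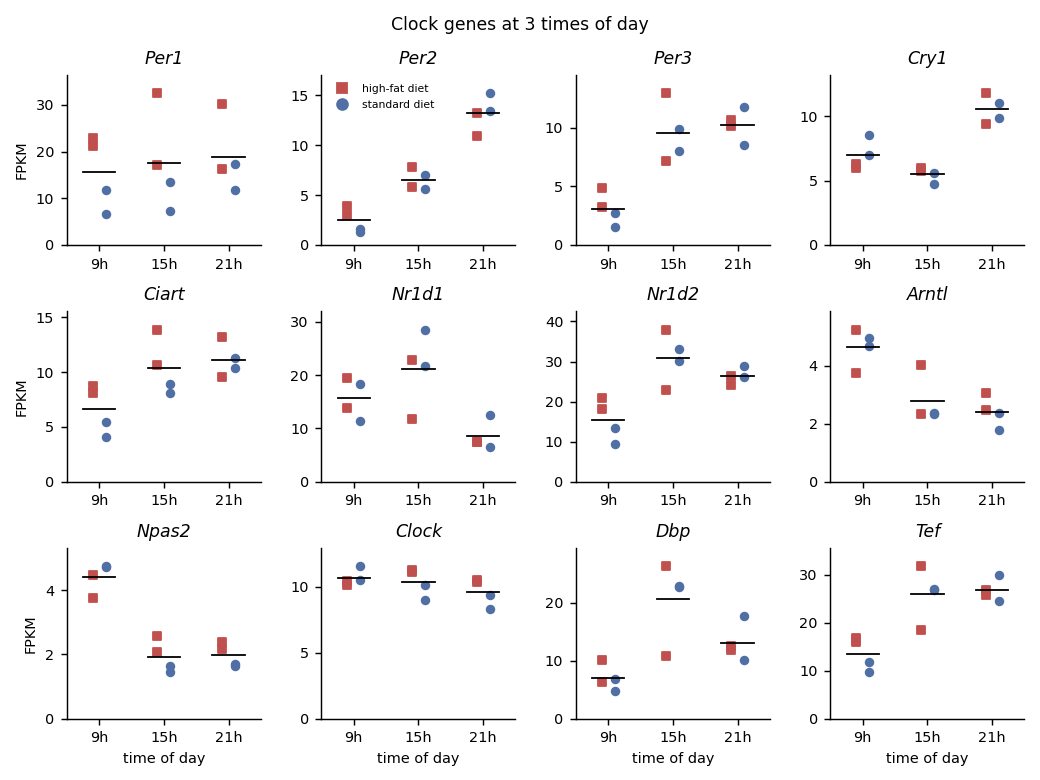
FPKM of 12 clock genes in each library at 9h, 15h and 21h, with HF as red squares, CTL as blue circles and the mean of the 4 libraries of a time as a black line. Per2, Per3 and Tef are lowest at 9h, and Arntl and Npas2 are highest at 9h.

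The stretches upstream of 3 of the genes that rose are shown because they hold exact copies of the clock's own binding motifs. They are the 250 bases before the RefSeq start site, 5′ to 3′ on the strand of the gene, in GRCm38.p6 coordinates, with E-boxes and D-boxes in capitals.
Ciart, chr3:95882229-95882478, minus strand: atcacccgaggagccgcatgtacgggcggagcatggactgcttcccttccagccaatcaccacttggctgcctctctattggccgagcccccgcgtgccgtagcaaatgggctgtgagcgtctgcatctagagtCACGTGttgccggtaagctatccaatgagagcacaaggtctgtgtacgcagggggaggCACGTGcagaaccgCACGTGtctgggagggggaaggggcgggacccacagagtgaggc
Cry1, chr10:85185055-85185304, minus strand: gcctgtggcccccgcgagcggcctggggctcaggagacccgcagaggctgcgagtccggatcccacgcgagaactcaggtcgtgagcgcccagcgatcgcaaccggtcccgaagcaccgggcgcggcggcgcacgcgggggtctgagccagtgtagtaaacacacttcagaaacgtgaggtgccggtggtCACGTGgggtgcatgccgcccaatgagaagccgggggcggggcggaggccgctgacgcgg
Per3, chr4:151044666-151044915, minus strand: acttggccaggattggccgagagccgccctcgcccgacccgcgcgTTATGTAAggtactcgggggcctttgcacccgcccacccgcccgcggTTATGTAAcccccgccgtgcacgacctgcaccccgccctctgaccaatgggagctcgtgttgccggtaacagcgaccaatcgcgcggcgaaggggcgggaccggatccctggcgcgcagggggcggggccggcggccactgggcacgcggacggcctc
Ciart held 3 copies of the E-box CACGTG, which begin 116, 58 and 44 bases before the start site, and Cry1 held 1 copy, 60 bases before it. Per3 held 2 copies of the D-box TTATGTAA, 205 and 158 bases before the start site. For the search, windows of 250 bases before to 50 bases after each start were read on both strands for CACGTG, for TTATGTAA or TTACGTAA, and for the ROR motif AGGTCA, motifs that share no site in these windows. Of the 8 called clock genes 7, all but Per2, had a window. An E-box was found for Ciart, Cry1 and Tef, against 7.15% of all 32851 windows, a D-box for Per3, against 1.06%, and a ROR motif for Arntl and Nr1d2, against 16.3%. These matches describe the letters only.

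Genes known as rhythmic outputs in many mouse tissues moved in part with the clock. Of 19 tested, 7 were called higher (Inmt, Cys1, Tspan4, Pnp, Wee1, Coq10b and Mthfd1l), against 1.82% of all genes, and 1 lower (Leo1), against 3.18%. The median log2 fold change was 0.43, or 0.21 without CTL_21h replicate 1. Of the 19 values 11 lay above 0, against 59.9% of all genes, and 8 below. The list was drawn up with rhythms of other tissues in mind and with earlier results of these data known. Inmt, an N-methyltransferase of small amines, had 33.5 and 34.7 FPKM in HF and 29.5 and 28.3 FPKM in CTL libraries of 21h, against 17.7 and 14.6 FPKM in HF and 6.04 and 9.64 FPKM in CTL libraries of 9h. The lowest library of 21h was well above the highest of 9h (log2 fold change 1.41, SE 0.18, adjusted p = 0.0193). Cys1, which encodes the ciliary protein cystin, had 5.70 and 3.91 FPKM in HF and 4.28 and 4.42 FPKM in CTL libraries of 21h, against 2.45 and 1.41 FPKM in HF and 1.20 and 1.496 FPKM in CTL libraries of 9h (log2 fold change 1.09, SE 0.15, adjusted p = 0.0194). Leo1, a subunit of the PAF1 transcription elongation complex, averaged 3.57 ± 0.327 FPKM at 21h and 5.92 ± 0.538 FPKM at 9h (SD, n = 4 each; log2 fold change -0.60, SE 0.09, adjusted p = 0.0199). Wee1, the kinase that holds back entry into mitosis, averaged 13.6 ± 2.08 FPKM at 21h and 8.43 ± 1.58 FPKM at 9h (log2 fold change 0.64, SE 0.14, adjusted p = 0.0393); it and the other genes of this list beyond the first 4 by p fall outside the naming rule and are named to complete the count.

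Skeletal muscle genes were lower at 21h as a group. Of 23 tested, 14 were called lower, against 3.18% of all genes, none was called higher, all 23 had a log2 fold change below 0 and the median was -0.73. Eyelids hold striated muscle, including the orbicularis that closes them. Actn3 (GRCm38 chromosome 19, 4861216 to 4877909, minus strand), the alpha-actinin of fast fibres, had 61.6 and 73.2 FPKM in HF and 87.6 and 67.3 FPKM in CTL libraries of 21h, against 142 and 189 FPKM in HF and 205 and 170.0 FPKM in CTL libraries of 9h. The highest library of 21h lay far below the lowest of 9h (log2 fold change -1.27, SE 0.13, adjusted p = 0.0104). Atp2a1, the calcium pump of fast muscle, had 202 and 308 FPKM in HF and 272 and 192 FPKM in CTL libraries of 21h, against 489 and 986 FPKM in HF and 800.0 and 722 FPKM in CTL libraries of 9h. It showed the largest fall of the list (log2 fold change -1.60, SE 0.24, adjusted p = 0.0199), and its 9h values were widely spread, with HF_9h replicate 6 lowest. Other called genes were the creatine kinase gene Ckm (-1.20 on the log2 scale), the fast myosin heavy chain gene Myh2 (-1.33) and the calcium release channel gene Ryr1 (-1.09). At the other end of the list, Ttn, the gene of titin, had a log2 fold change of -0.11, or 0.04 without HF_9h replicate 6, and was not called.

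The summed level of the muscle list was 4439.9 and 5148 FPKM in HF and 5986 and 3972 FPKM in CTL libraries of 21h, against 7754 and 9712 FPKM in HF and 9239 and 7617 FPKM in CTL libraries of 9h. The sums did not overlap between the times. The sums of 15h ran from 3595 to 6619 FPKM. The amount of muscle in each eyelid sample was not recorded, and its part in the result was not tested. The median log2 fold change of the list ran over -0.87 to -0.61 when single libraries were left out. As for all genes, none of the list was called without CTL_21h replicate 2, HF_21h replicate 3 or CTL_9h replicate 2.

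Genes that control muscle identity and size fell in part. Of 15 tested, 3 were called lower, against 3.18% of all genes. Myod1, the master regulator of the muscle lineage, had 0.419 and 0.420 FPKM in HF and 0.614 and 0.610 FPKM in CTL libraries of 21h, against 2.25 and 2.01 FPKM in HF and 2.25 and 1.83 FPKM in CTL libraries of 9h. These are low levels, and all 4 of 21h were far below the lowest of 9h (log2 fold change -1.03, SE 0.10, adjusted p = 0.0104). In these libraries Myod1 was above the filter of 1 FPKM only at 9h, and passing the filter in this way favours a difference of this sign. Mef2c, a transcription factor of muscle and other mesodermal cells, averaged 4.61 ± 0.568 FPKM at 21h and 8.05 ± 0.880 FPKM at 9h, and Mstn, which encodes the growth inhibitor myostatin, averaged 14.6 ± 1.47 FPKM at 21h and 23.1 ± 4.15 FPKM at 9h (SD, n = 4 each; log2 fold changes -0.69 and -0.61, adjusted p = 0.0199 and 0.0356). The atrophy ligase genes Trim63 and Fbxo32 had log2 fold changes of -0.51 and -0.19 and were not called.

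**Figure D3:**
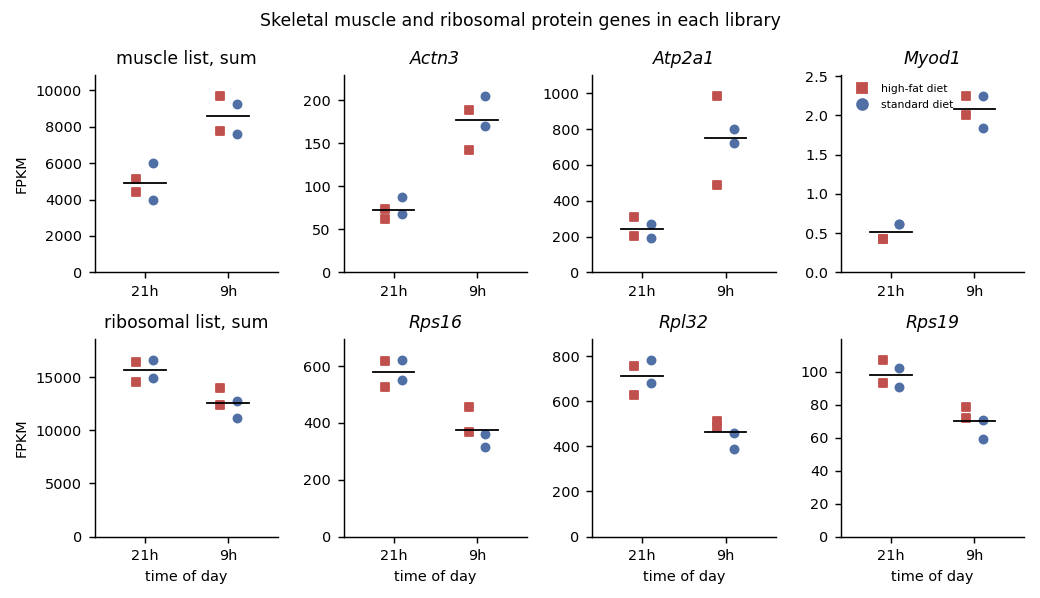
FPKM in each library of 21h (left) and 9h (right) for the summed muscle list, 3 of its or related genes, the summed ribosomal protein list and 3 of its genes, with HF as red squares, CTL as blue circles and the mean of the 4 libraries as a black line. Muscle values lie lower and ribosomal values higher at 21h.

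Several energy genes that fell encode muscle forms. In glycolysis 6 of 22 genes were called lower (Pfkm, Eno3, Pgam2, Gapdh, Slc2a4 and Pgam1), against 3.18% of all genes, and none higher, with a median of -0.20. The count takes a single gene ID per symbol, and Aldoa has a second ID that it leaves out. Pfkm, the muscle phosphofructokinase, averaged 70.3 ± 10.8 FPKM at 21h and 137 ± 20.5 FPKM at 9h, and Eno3, the muscle enolase, averaged 201 ± 40.2 FPKM at 21h and 375 ± 32.8 FPKM at 9h (SD, n = 4 each; log2 fold changes -0.95 and -0.91, adjusted p = 0.0199 and 0.0216). Pgam2, the muscle phosphoglycerate mutase, had a log2 fold change of -0.85 and Gapdh one of -0.66 (adjusted p = 0.0207 and 0.0206). Gapdh has many near-identical copies in the genome, so its counts are uncertain. Pgam1, the form common outside muscle, fell by 0.41 on the log2 scale but was not called with rescaled libraries (adjusted p = 0.0583), after centring on GC content (0.0561) or with no diet term (0.0709), while Eno1 and Pfkl had log2 fold changes of 0.09 and -0.11, neither called. In fatty acid oxidation 1 of 27 genes was called lower, a share near the 3.18% of all genes. It was the muscle and heart fatty acid-binding protein gene Fabp3 (log2 fold change -0.95, SE 0.17, adjusted p = 0.0258). Of the 27 values 26 lay below 0, against 40.1% of all genes, and the median was -0.23. Within HF 19 lay below 0 and 8 above, and within CTL 25 below and 2 above. Slc2a4, the insulin-dependent glucose transporter GLUT4 of muscle and fat, fell by 0.65 on the log2 scale (adjusted p = 0.0368), as the 1 called gene of 13 in the adipocyte list, against 3.18% of all genes.

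Ribosomal protein genes were higher at 21h. Of 35 tested, 9 were called higher, against 1.82% of all genes, none lower, and all 35 had a log2 fold change above 0, with a median of 0.38. Rps16, a protein of the small subunit, had 619.7 and 526 FPKM in HF and 622 and 551 FPKM in CTL libraries of 21h, against 454 and 369 FPKM in HF and 362 and 316 FPKM in CTL libraries of 9h. The times did not overlap (log2 fold change 0.63, SE 0.12, adjusted p = 0.0317), although HF_9h replicate 6 was the highest of 9h. Rpl30, a protein of the large subunit, had 45.4 and 37.6 FPKM in HF and 46.1 and 39.4 FPKM in CTL libraries of 21h, against 25.4 and 27.8 FPKM in HF and 25.8 and 18.8 FPKM in CTL libraries of 9h (log2 fold change 0.77, SE 0.12, adjusted p = 0.0216). Rpl32 averaged 712 ± 71.8 FPKM at 21h and 462 ± 53.0 FPKM at 9h and Rps19 98.2 ± 7.70 FPKM at 21h and 70.2 ± 8.07 FPKM at 9h (SD, n = 4 each; log2 fold changes 0.63 and 0.48, adjusted p = 0.0317 and 0.0311). The summed list had 16489 and 14556 FPKM in HF and 16649 and 14966 FPKM in CTL libraries of 21h, against 13979 and 12424 FPKM in HF and 12818 and 11158 FPKM in CTL libraries of 9h. These genes have many processed copies in the genome, so the authors' counting may have split their reads, and single values are uncertain. Short genes as a class leaned the same way. In the quintile of genes with the shortest exons 105 of 2648 were called higher and 67 lower. In the longest quintile 17 of 2645 were called higher and 66 lower. Among all genes 1.82% were called higher and 3.18% lower. The part of length in the result was not tested.

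Within the cell cycle, genes of DNA replication and genes of mitosis had opposite signs. Of 29 replication genes 3 were called higher, against 1.82% of all genes, 27 had a value above 0, against 59.9%, and the median was 0.27. Of 30 mitosis genes 3 were called lower, against 3.18% of all genes, 26 had a value below 0, against 40.1%, and the median was -0.20. The summed replication list had 164 and 195 FPKM in HF and 230 and 208 FPKM in CTL libraries of 21h. At 9h it had 160 and 150 FPKM in HF and 175 and 169 FPKM in CTL libraries. The summed mitosis list had 117 and 111 FPKM in HF and 137 and 137 FPKM in CTL libraries of 21h. At 9h it had 173 and 122 FPKM in HF and 172 and 166 FPKM in CTL libraries. Both sums overlapped between the times. Cdc20 (GRCm38 chromosome 4, 118432901 to 118437352, minus strand), the activator of the anaphase-promoting complex, had 9.38 and 9.05 FPKM in HF and 10.5 and 9.65 FPKM in CTL libraries of 21h, against 16.7 and 14.7 FPKM in HF and 21.9 and 20.6 FPKM in CTL libraries of 9h. Each 21h library was below every 9h library (log2 fold change -0.85, SE 0.09, adjusted p = 0.0104). Ccnb2, a mitotic cyclin, averaged 9.62 ± 1.74 FPKM at 21h and 13.6 ± 2.23 FPKM at 9h, with 1 library of 21h inside the 9h range, and the mitotic kinesin gene Kif20a averaged 1.64 ± 0.420 FPKM at 21h and 2.94 ± 0.548 FPKM at 9h (SD, n = 4 each; adjusted p = 0.0380 and 0.0369). Top2a, which marks cycling cells in general, had a log2 fold change of -0.14 and was not called.

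Cdc6, which loads the replicative helicase onto DNA, had 1.34 and 1.41 FPKM in HF and 1.75 and 1.47 FPKM in CTL libraries of 21h, against 0.735 and 0.644 FPKM in HF and 1.02 and 0.866 FPKM in CTL libraries of 9h. These levels are near the filter of 1 FPKM, and the times did not overlap (log2 fold change 0.46, SE 0.09, adjusted p = 0.0328). Gins1 averaged 5.10 ± 0.549 FPKM at 21h and 3.43 ± 0.478 FPKM at 9h and Gins2 2.04 ± 0.193 FPKM at 21h and 1.34 ± 0.0460 FPKM at 9h (SD, n = 4 each; log2 fold changes 0.46 and 0.38, adjusted p = 0.0407 and 0.0431); both encode parts of the same helicase. Gins1 was not called by limma-voom (adjusted p = 0.0664). The helicase core genes Mcm3, Mcm4, Mcm5 and Mcm6 had log2 fold changes of 0.42, 0.43, 0.43 and 0.41 and were not called. Without HF_9h replicate 6, 10 replication genes were called higher, against 20.1% of all genes, and 5 mitosis genes lower, against 9.80%.

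**Figure D4:**
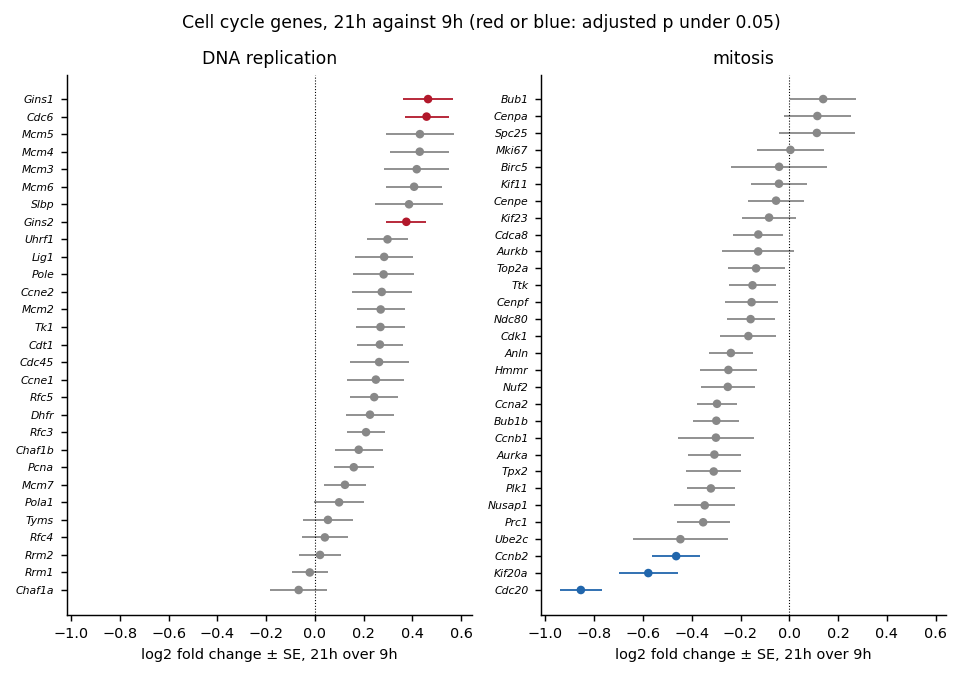
Log2 fold change, 21h over 9h, with its standard error, for the 29 tested genes of DNA replication (left) and the 30 of mitosis (right), in order of size. Red marks the 3 genes called higher and blue the 3 called lower. Most replication genes lie right of 0 and most mitosis genes left of it.

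Interferon response genes leaned higher at 21h. Of 23 tested, 5 were called higher, Stat2, Oas2, Rtp4 and Xaf1 among them, against 1.82% of all genes, all 23 had a log2 fold change above 0 and the median was 0.49. Within the diets the medians were 0.49 in HF and 0.52 in CTL. The 4 libraries of 21h overlapped with those of 9h for each of the 23 genes, with HF levels far below CTL levels in the sum at both times. Stat2, a signal transducer of the type I interferon receptor, had 7.398 and 7.64 FPKM in HF and 17.4 and 21.6 FPKM in CTL libraries of 21h, against 5.81 and 4.01 FPKM in HF and 10.4 and 10.1 FPKM in CTL libraries of 9h. In each diet both 21h libraries were above both 9h libraries (log2 fold change 0.70, SE 0.12, adjusted p = 0.0258). Oas2, an antiviral enzyme with close relatives in the genome, had 1.56 and 2.59 FPKM in HF and 9.43 and 15.5 FPKM in CTL libraries of 21h, against 1.03 and 0.770 FPKM in HF and 4.39 and 4.32 FPKM in CTL libraries of 9h (log2 fold change 0.99, SE 0.19, adjusted p = 0.0320). The summed list had 136 and 194 FPKM in HF and 601 and 797 FPKM in CTL libraries of 21h, against 88.1 and 105 FPKM in HF and 556 and 479 FPKM in CTL libraries of 9h. Lymphocyte lists also had positive medians, 0.27 for 13 T cell genes and 0.28 for 7 B cell genes, with no gene called. Without HF_21h replicate 6 these medians were 0.14 and 0.14, without CTL_9h replicate 3 that of T cells was 0.16, and that of B cells was 0.07 without CTL_21h replicate 2 and 0.43 without HF_21h replicate 3. Their part in the interferon result was not tested. With all 12 libraries in the additive fit 2 interferon genes were called, and by limma-voom 9.

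Genes of the skin surface and hair follicle moved in small numbers. Among 12 genes of stressed epidermis 2 were called higher, against 1.82% of all genes, and the median of 0.76 was 0.28 without CTL_21h replicate 1 and 0.37 without CTL_9h replicate 3. Serpinb3a, a protease inhibitor of the epidermis, had 321 and 341 FPKM in HF and 342 and 373 FPKM in CTL libraries of 21h, against 251 and 134 FPKM in HF and 136 and 199 FPKM in CTL libraries of 9h. The times did not overlap (log2 fold change 0.98, SE 0.20, adjusted p = 0.0352), and HF_9h replicate 6 was the 9h library closest to 21h. Stfa1, a cysteine protease inhibitor of the stefin family, averaged 14.8 ± 5.26 FPKM at 21h and 6.88 ± 1.39 FPKM at 9h (SD, n = 4 each; log2 fold change 0.96, SE 0.21, adjusted p = 0.0431); both genes have near-identical neighbours. Stfa1 was not called by limma-voom (adjusted p = 0.0530) or after centring on GC content (0.0528). Of 25 genes of epidermal differentiation 1 was called higher, a count that is no result about the list beside 1.82% of all genes. It was the desquamation protease gene Klk7, with 182 ± 17.3 FPKM at 21h and 128 ± 18.04 FPKM at 9h (SD, n = 4 each; log2 fold change 0.51, SE 0.12, adjusted p = 0.0493). Its adjusted p was 0.0530 after centring on GC content. Of 20 hair follicle genes 2 were called lower, against 3.18% of all genes: Krt31, a hair shaft keratin, averaged 38.7 ± 13.9 FPKM at 21h and 71.9 ± 13.2 FPKM at 9h, and Foxn1, a transcription factor of hair keratinocytes, averaged 4.69 ± 0.383 FPKM at 21h and 6.78 ± 0.825 FPKM at 9h (SD, n = 4 each; adjusted p = 0.0441 and 0.0304). With all 12 libraries in the additive fit Foxn1 was not called (adjusted p = 0.0782), and with no diet term Krt31 was not (0.0612). The hair list had a median of -0.45, or -0.27 without CTL_21h replicate 1, with 18 of 20 values below 0.

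The stroma gave a few calls. Among mast cell protease genes Mcpt4 fell, with 6.59 and 7.71 FPKM in HF and 4.06 and 6.31 FPKM in CTL libraries of 21h, against 10.0 and 11.2 FPKM in HF and 10.4 and 11.5 FPKM in CTL libraries of 9h (log2 fold change -0.74, SE 0.14, adjusted p = 0.0317). Cma1, the mast cell chymase gene, fell too and averaged 3.86 ± 0.721 FPKM at 21h and 6.53 ± 1.20 FPKM at 9h (SD, n = 4 each; log2 fold change -0.63, SE 0.14, adjusted p = 0.0441). They were 2 of 7 tested mast cell and eosinophil genes, against 3.18% of all genes called lower. Cma1 was not called by limma-voom (adjusted p = 0.0677) or with all 12 libraries in the additive fit (0.0880). Of 25 fibroblast and matrix genes 2 were called lower, against 3.18% of all genes: Col1a1, the main chain of type I collagen, averaged 74.8 ± 15.1 FPKM at 21h and 118 ± 8.80 FPKM at 9h, and Loxl1, a cross-linking oxidase, averaged 8.68 ± 0.822 FPKM at 21h and 13.5 ± 1.10 FPKM at 9h (SD, n = 4 each; adjusted p = 0.0359 and 0.0199). With all 12 libraries in the additive fit neither was called (adjusted p = 0.102 for Col1a1 and 0.140 for Loxl1). The list as a whole was split, with 11 values above 0 and 14 below. Its median was -0.03 (-0.20 in HF and 0.06 in CTL), or 0.11 without HF_9h replicate 6. Igfbp5, which binds insulin-like growth factors, and Akt2, a kinase of insulin signalling, fell by 0.56 and 0.37 on the log2 scale and were the 2 called genes of 15 in the insulin list, against 3.18% of all genes (adjusted p = 0.0198 and 0.0258). The insulin list had 6 values above 0 and 9 below, with a median of -0.03, or 0.06 without HF_9h replicate 6. Prx, a myelin gene of Schwann cells, fell by 0.36 (adjusted p = 0.0430) and was the 1 called gene of 9 in the Schwann cell list, against 3.18% of all genes. That list had 5 values above 0 and 4 below, with a median of 0.03, or 0.20 without HF_9h replicate 6. The small heat shock protein gene Hspb1 averaged 145 ± 9.17 FPKM at 21h and 211 ± 11.4 FPKM at 9h and was the 1 called gene of 20 chaperones, a share near the 3.18% of all genes (log2 fold change -0.54, SE 0.08, adjusted p = 0.0199). Manf, a secreted protein of the unfolded protein response, averaged 24.4 ± 2.84 FPKM at 21h and 17.8 ± 2.78 FPKM at 9h (SD, n = 4 each; log2 fold change 0.44, SE 0.10, adjusted p = 0.0445) and was the 1 called gene of 17, beside 1.82% of all genes called higher, but with rescaled libraries its adjusted p was 0.0569 and after centring on GC content 0.0509.

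Lipid synthesis, for which the gland is known, gave no call by limma in the 8 libraries. With all 12 libraries in the additive fit 2 cholesterol synthesis genes were called higher, among 608 of all genes. By limma-voom 1 was called higher, among 340 of all genes. Among 24 genes of meibocytes and sebocytes, 25 of fatty acid synthesis and 25 of cholesterol synthesis none was called by limma, and their median log2 fold changes were -0.01, -0.04 and 0.08, with signs that turned for the first and second when single libraries were left out. Awat2 and Scd1, the main fatty acid desaturase gene of the gland, had log2 fold changes of -0.14 (SE 0.180) and -0.11 (SE 0.203). The gene of these lists with the smallest p, the sterol isomerase gene Ebp, had 40.0 and 41.2 FPKM in HF and 37.0 and 37.8 FPKM in CTL libraries of 21h, against 30.5 and 33.6 FPKM in HF and 33.2 and 30.8 FPKM in CTL libraries of 9h, without overlap, and was just outside the threshold (log2 fold change 0.28, SE 0.07, adjusted p = 0.0534). In all, 20 of the 42 lists held no called gene. Of their 277 genes 31 had an unadjusted p under 0.05, against 28.3% of all genes tested, and limma-voom called 2. Those lists cover glucocorticoid targets, immediate early genes, cold-inducible RNA-binding proteins, chemokines, NRF2 targets and mitochondrially encoded genes, and markers of basal keratinocytes, conjunctiva, lacrimal acini, melanocytes, endothelium, macrophages, T cells, B cells, neutrophils and red blood cells.

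**Figure D5:**
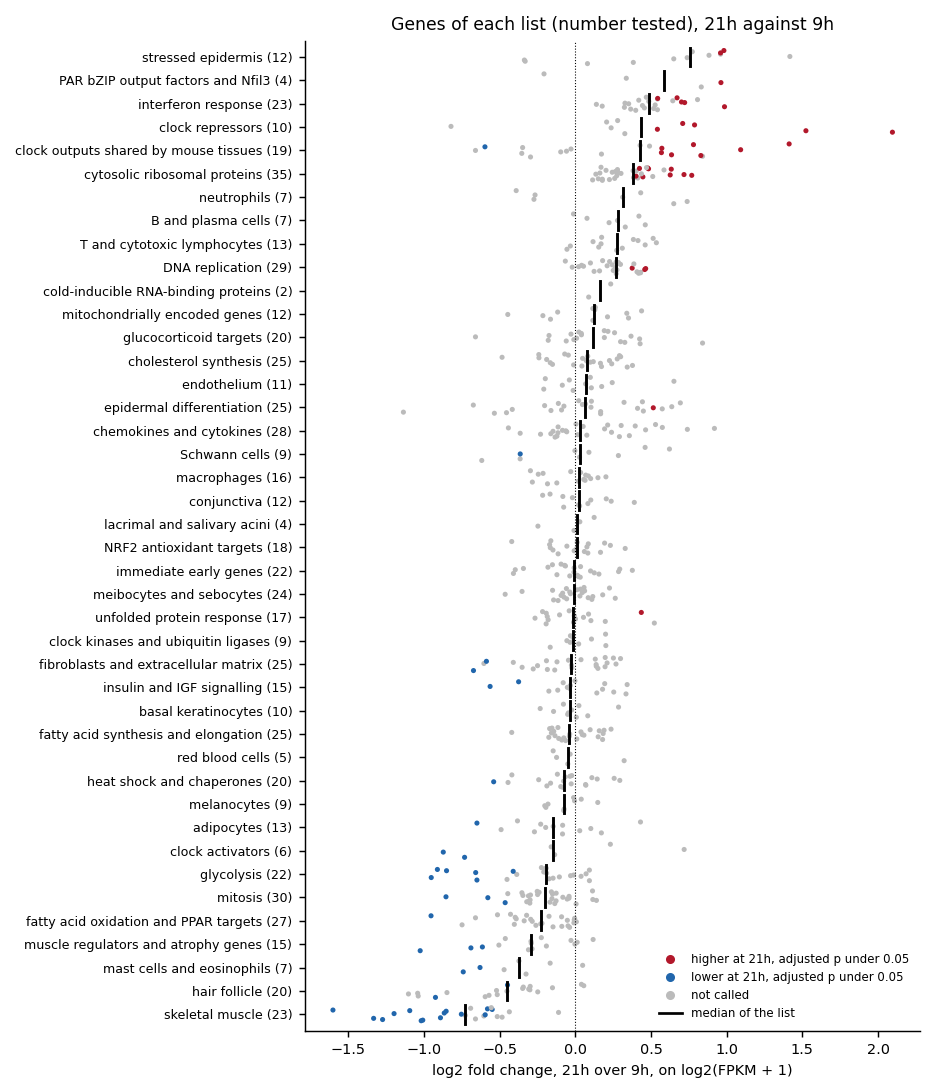
Log2 fold change, 21h over 9h, of every tested gene of the 42 lists, with the list's median as a black bar and the number of genes tested in brackets. Red genes were called higher and blue genes lower. Skeletal muscle has the lowest median, -0.73, and stressed epidermis the highest, 0.76, which is 0.28 without CTL_21h replicate 1.

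Outside the lists, 587 of the 661 called genes belonged to none of them, and the largest changes among them were of mixed kinds. Of the genes that rose, Cytl1, a secreted protein of cartilage, had 53.9 and 25.5 FPKM in HF and 43.4 and 27.8 FPKM in CTL libraries of 21h, against 18.2 and 17.9 FPKM in HF and 3.96 and 3.12 FPKM in CTL libraries of 9h. The HF libraries of 9h were already several times above the CTL libraries of 9h (log2 fold change 1.99, SE 0.41, adjusted p = 0.0352), and limma-voom did not call it (adjusted p = 0.0639). Angptl7, a secreted protein of the angiopoietin-like family, had 64.1 and 34.2 FPKM in HF and 60.0 and 34.6 FPKM in CTL libraries of 21h, against 19.7 and 19.2 FPKM in HF and 14.5 and 10.0 FPKM in CTL libraries of 9h (log2 fold change 1.53, SE 0.25, adjusted p = 0.0216). Fmo1, a flavin monooxygenase, averaged 8.83 ± 1.71 FPKM at 21h and 3.10 ± 1.47 FPKM at 9h, Crabp1, which binds retinoic acid, averaged 40.7 ± 11.9 FPKM at 21h and 19.4 ± 2.51 FPKM at 9h, and Gnrh1, the gene of gonadotropin-releasing hormone, averaged 4.52 ± 1.09 FPKM at 21h and 1.64 ± 0.890 FPKM at 9h (SD, n = 4 each; log2 fold changes 1.305, 1.00 and 1.10, adjusted p = 0.0218, 0.0258 and 0.0258). Also among the 15 largest rises were Clca3a1, Lce3a, Ccnl1, Cstdc5, Fibin and Hmgn3, with log2 fold changes of 1.57, 1.31, 1.16, 1.16, 1.03 and 0.99. For Clca3a1, Ccnl1 and Hmgn3 the mean of 9h hid a split: HF_9h replicate 6 had 8.99, 20.5 and 23.5 FPKM, while the other 3 libraries of 9h had 2.09 to 2.40, 6.82 to 9.17 and 9.66 to 10.9 FPKM.

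Of the genes that fell, the keratin gene Krt77 had the largest difference and the widest spread. It had 0.169 and 0.0410 FPKM in HF and 3.37 and 5.87 FPKM in CTL libraries of 21h, against 14.7 and 17.98 FPKM in HF and 76.5 and 6.35 FPKM in CTL libraries of 9h. The times touched nearly, with 5.87 FPKM as the highest value of 21h and 6.35 FPKM as the lowest of 9h (log2 fold change -3.04, SE 0.68, adjusted p = 0.0431), and limma-voom did not call it (adjusted p = 0.172). Serpinb6d had 0.436 and 0.164 FPKM in HF and 1.93 and 2.07 FPKM in CTL libraries of 21h, against 3.57 and 7.87 FPKM in HF and 8.01 and 5.01 FPKM in CTL libraries of 9h (log2 fold change -1.80, SE 0.27, adjusted p = 0.0199). Spon2, the gene of the matrix protein spondin 2, had 1.56 and 1.71 FPKM in HF and 1.504 and 1.92 FPKM in CTL libraries of 21h, against 7.43 and 2.97 FPKM in HF and 8.19 and 8.403 FPKM in CTL libraries of 9h, so that all 21h libraries were close together and 3 of 9h were far above (log2 fold change -1.46, SE 0.23, adjusted p = 0.0211). The other 12 of the 15 largest falls were genes known from striated muscle: beside Atp2a1, Actn3, Ckm and Myh2 they were Cacna1s, Nmrk2, Eef1a2, Mybpc2, Ampd1, Asb2, Trim54 and Nrap, with log2 fold changes from -1.37 for Cacna1s to -1.10 for Nrap.

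Each diet alone gave few calls. In a fit of 4 group means, 21h against 9h called 0 genes within HF by limma (1157 had an unadjusted p under 0.05) and 7 within CTL (0.0529% of all genes): Per2, Tef, Inmt and Cytl1 rose, and Cdc20, Cd248 and a second gene ID with the symbol Aldoa fell. Cd248, a marker of pericytes and fibroblasts, lies outside the naming rule and averaged 5.81 ± 0.313 FPKM at 21h and 11.9 ± 1.64 FPKM at 9h over both diets (SD, n = 4 each). Without HF_9h replicate 6, 166 genes were called within HF (1.25%). Within CTL the count was 984 without HF_9h replicate 7 and 975 without HF_9h replicate 6, libraries that enter only through the shared spread, and between 0 and 3 without any other single library. For Per2 the log2 fold change was 1.56 (SE 0.16) in HF and 2.63 (SE 0.16) in CTL. Of the 8 called clock genes 7 had the larger change in CTL, with Cry1 the exception at 0.69 in HF and 0.39 in CTL. The share of all genes with the larger change in CTL was not counted. By limma 2598 of all genes had an unadjusted p under 0.05 within CTL, against 1157 within HF, so the lean towards CTL was not particular to the clock.

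No gene passed the test of that difference. The interaction of diet and time called 0 genes by limma and 0 by limma-voom, where 193 and 167 genes had an unadjusted p under 0.05. In simulated libraries with known changes the interaction test by limma recovered 18% of 2-fold differences. The test of 21h against 9h recovered 87%. The simulation gave each gene the spread of a gene drawn at random and held no library that stood apart. Its shares may therefore not hold for these libraries. With 2 libraries per diet and time, a lack of calls does not show that the diets changed alike. By limma the smallest adjusted p was 1.00. The 5 genes with the smallest p were Gm12248, Per2, Usp2, Cytl1 and the second Aldoa ID. With HF_21h replicate 3 left out the interaction test called 1 gene. For Per2 the interaction was -1.07 (SE 0.23), HF minus CTL, at an unadjusted p of 0.00165 and an adjusted p of 1.00. Usp2, a deubiquitinase that is rhythmic in many tissues, had 5.93 and 6.99 FPKM in HF and 7.21 and 6.19 FPKM in CTL libraries of 21h, against 10.4 and 13.2 FPKM in HF and 5.68 and 5.85 FPKM in CTL libraries of 9h: it was high in the HF libraries of 9h and level elsewhere, with an interaction of -0.96 (SE 0.21) at an adjusted p of 1.00.

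The libraries of 15h place the called genes between the ends. The 15h mean, on the log2 scale, lay between those of 9h and 21h for 215 of the 241 genes called higher and for 370 of the 420 called lower. Since the genes were chosen for the distance between the ends, this is a description. It lay beyond the 21h mean for 21 of the higher and 49 of the lower genes. Among clock genes, Per2 averaged 2.46, 6.54 and 13.2 FPKM at 9h, 15h and 21h. Npas2 averaged 4.43, 1.93 and 1.97 FPKM, so that its 15h level was close to that of 21h. Cry1 averaged 6.94, 5.50 and 10.5 FPKM, Dbp 6.95, 20.7 and 13.0 FPKM and Nr1d1 15.8, 21.2 and 8.56 FPKM, with the lowest 15h mean of the 3 times for Cry1 and the highest for Dbp and Nr1d1. A test of 15h against the midpoint of 21h and 9h called 0 genes by limma, with 1058 at an unadjusted p under 0.05, and 393 genes without HF_9h replicate 6. Its smallest adjusted p was 0.0739, for Ppp1r27, a phosphatase regulatory subunit gene with 3.85, 0.606 and 1.56 FPKM at 9h, 15h and 21h. Next by p were AC149090.1, Cry1, CAAA01147332.1 and Them6.

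The fold changes also differed with base composition. In the quintile of genes with the lowest GC content the median log2 fold change was 0.11. Of its 2643 genes, 50 were called higher and 23 lower. In the quintile with the highest GC content the median was -0.03. Of its 2643 genes, 34 were called higher and 173 lower. Among all genes 1.82% were called higher and 3.18% lower. Not every library followed its time, by its median distance from the mean of the 8 on the log2 scale. In the lowest quintile HF_9h replicate 6 lay at 0.084, above the 21h libraries (0.019 to 0.079). The other 9h libraries lay at -0.158 to -0.072. In the highest quintile HF_9h replicate 7 lay at -0.030, inside the 21h range (-0.035 to -0.005). The other 9h libraries lay at 0.020 to 0.057. After the GC trend was taken out of each library 708 genes were called, 263 higher and 445 lower, and 545 of the 661 were among them. In that fit 17 muscle genes and 8 mitosis genes were called lower, against 3.37% of all genes, and 8 ribosomal protein, 4 interferon and 3 replication genes higher, against 1.99%.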

How the data were processed

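RNA was sequenced from 12 libraries, and 8 of them were compared. The deposited table holds the authors' FPKM values per gene. RNA was isolated with Trizol and made into libraries with an NEBNext kit, per the labels' protocols. HISAT2 2.0.5, HTSeq 0.9.1, DESeq 1.30.0 and the build mm9 are named in the submitters' processing notes. Neither the annotation nor the strand setting is given in these sources, so antisense and overlapping genes cannot be told apart. GENCODE mouse release 21 (GRCm38) holds 21894 of the 21936 gene IDs, and its coordinates are used. By its exon lengths, 98.1% of the values above 0 were whole reads within 0.02 reads, which gave the depths; for a gene with 2 kb of exon, 1 read equals 0.0279 to 0.0355 FPKM.

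Tests were run with limma 3.58.1 in R 4.3.3 (trend prior, 2-sided) on log2(FPKM + 1), which understates the change of low genes, with time and diet as additive terms. Benjamini-Hochberg adjustment ran over all 13228 genes, and called means an adjusted p under 0.05. Only 8 libraries entered, so 15h did not shape the spread. Interaction and within-diet values came from 4 group means, and the 15h test from all 12 libraries. Scripts were tested on simulated data. The replicate numbers in the labels were not used to pair the libraries. Only 1 number per diet is shared, and its 2 libraries did not deviate together. With 1 pair per diet this cannot decide whether the libraries are paired.

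The comparison, its members and the 42 gene lists (730 genes, 9 of them not in the table) were chosen with earlier results of these data known. Named by rule were all tested clock genes, the 15 largest rises and falls among called genes with a mean of at least 2 FPKM, no overlap and a regular name, the first 4 called genes of each list by p (or the 1 with the smallest p), and the 5 genes with the smallest p for the interaction and for 15h. Other genes named to complete a count or to stand for a part of a list were chosen after their values were seen. Not every gene under the rule is reported here. Alternatives were another pseudocount, other filters, all 12 libraries, no diet term, rescaled libraries, limma-voom on the recovered reads, a robust prior, a replicate block and each library left out. Centring on GC content (known for 99.9% of the genes tested) and limma-voom for the interaction were chosen after seeing the data.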

Additional observations from a re-analysis of the deposited data

Results flagged for a closer look

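With 4 libraries at each time, 122 named genes were searched for a library far from the other 3 of its time, that is with a gap to the nearest, as a share of the whole range, above Dixon's 95% critical value for 4 values. Chance gives about 1 in 20 such groups; here 11 of 244 were found. At 21h, HF_21h replicate 6 was high for Ccnl1 (26.9 FPKM), CTL_21h replicate 1 was high for Loxl1 (9.90 FPKM), and HF_21h replicate 3 was low for Pnp (6.13 FPKM). At 9h, HF_9h replicate 6 was high for Clca3a1 (8.99 FPKM), Fmo1 (5.29 FPKM), Hmgn3 (23.5 FPKM) and Rbm3 (49.7 FPKM). HF_9h replicate 7 was low for Bhlhe40 (19.2 FPKM) and Spon2 (2.97 FPKM) and high for Trim63 (22.4 FPKM), and CTL_9h replicate 2 was low for Snorc (0.0816 FPKM). Of these genes Ccnl1, Loxl1, Pnp, Clca3a1, Fmo1, Hmgn3, Spon2 and Snorc were called between the times.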

How the results depend on the processing

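The count of 661 called genes (241 higher, 420 lower) stayed between 588 and 850 with a pseudocount of 0.1, a stricter filter, no diet term, 6 group means, rescaled libraries, a robust prior, GC centring or limma-voom. With no filter on low values (18451 genes) it was 88 (24 higher, 64 lower), and with all 12 libraries in the additive fit 1242 (608 higher, 634 lower). Of the 661 genes 602 were called in that 12-library fit and 74 with no filter. Leaving out single libraries gave 0 to 3960 calls (0 to 2664 higher, 0 to 1296 lower). Within HF the count ran over 0 to 166 without single libraries and was 1 from the 4 HF libraries alone. Within CTL it ran over 0 to 984, was 1 with a pseudocount of 0.1 and 0 from the 4 CTL libraries alone. The interaction gave 0 to 1 and the 15h test 0 to 393. The cause was not tested.

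Replicate numbers were not used to pair the libraries in the fit of 8 libraries. Within each diet 21h and 9h share 1 number, and the deviations of those pairs had r = -0.13 (HF) and -0.50 (CTL). A single pair per diet cannot decide whether the numbers mark a pairing. With a replicate block over 12 libraries no gene was called by limma, that is 0, and 1204 had an unadjusted p under 0.05. Of 122 named genes, signs turned for Awat2 (0.0137) and Scd1 (0.12) under the block, for Scd1 without CTL_21h replicate 1 (-0.28 to 0.0056 over single libraries left out), for Ttn (-0.22 to 0.0401), and for CAAA01147332.1 under the block (-0.16), with rescaled libraries (-0.0098) and over single libraries left out (-0.0174 to 0.12). Of 88 called, 74 lost the call with no filter, 15 with no diet term, 14 with 6 group means, 11 in the additive 12-library fit, 8 by limma-voom, 6 with rescaled libraries, 6 after GC centring, 3 with a pseudocount of 0.1, 1 with a robust prior and 88 under the block. Depth limits mainly genes near or under 1 FPKM, such as Cdc6, Snorc and Ucma.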

Other observations

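Among the called genes outside the lists, 4 that rose are given here. They were picked after their values were seen and because they rose, so they stand for no wider group of genes. They were Chad, the matrix protein chondroadherin, Cnmd, the anti-angiogenic chondromodulin, Ucma, a protein of the growth plate, and Snorc, a small membrane proteoglycan. Chad had 11.6 and 7.19 FPKM in HF and 6.32 and 6.53 FPKM in CTL libraries of 21h, against 5.53 and 5.17 FPKM in HF and 2.80 and 1.86 FPKM in CTL libraries of 9h (log2 fold change 0.92, SE 0.17, adjusted p = 0.0267). Cnmd had 3.00 and 1.11 FPKM in HF and 1.46 and 1.40 FPKM in CTL libraries of 21h, against 0.809 and 0.465 FPKM in HF and 0.0639 and 0.212 FPKM in CTL libraries of 9h (log2 fold change 0.97, SE 0.19, adjusted p = 0.0343). The levels of Cnmd were low and those of Ucma and Snorc lower still at 9h, with averages of 1.89 ± 0.981 FPKM at 21h and 0.199 ± 0.207 FPKM at 9h for Ucma and of 1.34 ± 0.662 FPKM at 21h and 0.262 ± 0.121 FPKM at 9h for Snorc (SD, n = 4 each; adjusted p = 0.0334 and 0.0223). All 4 were called by limma without overlap between the times, but limma-voom did not call Cnmd (adjusted p = 0.0698) or Ucma (0.0553), and Chad was not called with no diet term (0.0890). Among these 8 libraries Cnmd was above the filter of 1 FPKM only at 21h, and Ucma and Snorc averaged less than 1 FPKM at 9h. A filter that such genes pass through their high time favours a difference, so their calls and lack of overlap only describe them. At 15h Chad had 4.86 and 8.15 FPKM in HF and 5.09 and 3.54 FPKM in CTL libraries.

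The glucocorticoid-induced gene Tsc22d3 had 81.2 and 57.3 FPKM in HF and 76.5 and 33.9 FPKM in CTL libraries of 21h, against 59.1 and 47.8 FPKM in HF and 18.4 and 21.1 FPKM in CTL libraries of 9h, with HF libraries of 9h inside the range of 21h and CTL libraries of 9h below it, and was not called (log2 fold change 0.84, SE 0.28, adjusted p = 0.107). The cold-inducible gene Rbm3 had 44.5 and 45.9 FPKM in HF and 52.3 and 47.4 FPKM in CTL libraries of 21h, against 49.7 and 36.7 FPKM in HF and 38.0 and 37.6 FPKM in CTL libraries of 9h, with HF_9h replicate 6 among the libraries of 21h, and was not called (log2 fold change 0.23, SE 0.11, adjusted p = 0.199). Across genes, the 21h over 9h differences of HF and CTL had a Pearson r of 0.67, which was 0.74 without HF_9h replicate 6 and 0.32 without HF_9h replicate 7; genes are not independent replicates.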
